A study of Mus musculus with 8 samples.

Results

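Transmitter leaves a neuron when a docked vesicle fuses with the membrane, and 9 genes whose proteins carry out or prepare that step were followed through the open chromatin of SN4741 cells. They were Unc13a, Stx1a, Rims1, Cplx1, Snap25, Syt1, Vamp2, Syn1 and Sv2a, which are 9 of the 21938 protein-coding genes on 21 chromosomes in GENCODE mouse release M21. The genes were chosen by name, and for each of them every ATAC-seq peak in the gene body and 20 kb on each side was read (mm10). The peaks of the 8 libraries merged into 62 regions in these windows, out of 98066 in the genome, and 52 of the 62 belonged to the 84777 consensus regions, which at least 2 libraries called.

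SN4741 is reported to be a clonal mouse line from the substantia nigra of an E13.5 embryo. It was immortalised by a temperature-sensitive SV40 T antigen that a tyrosine hydroxylase promoter drives. The study found its karyotype unstable and polyploid. The labels call the cells wild-type neural precursor cells. There were 4 libraries at 37 °C, the permissive temperature, from cells in 10% serum, and 4 from cells kept for 48 h at 39 °C, the non-permissive temperature, in 0.5% serum, each made from 50000 cells with 12 PCR cycles. Temperature and serum changed together, so their effects cannot be told apart. The comparison asks whether the chromatin of release genes differs when the line is made to differentiate.

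In ATAC-seq a transposase cuts accessible DNA, and fragments pile up where chromatin is open. The peak caller kept 49.8 to 169 M fragments (M for mega) per library at 37 °C and 52.7 to 71.2 M at 39 °C. Replicates 1 and 4 at 37 °C, with 169 and 158 M, were the only ones above 100 M. The lists held 74026 to 92013 peaks at 37 °C and 54845 to 68410 at 39 °C, and the shortest was replicate 4 at 39 °C. Nothing in the labels says that the libraries of a group came from separate cultures, so p-values measure the spread between these libraries, which may be technical. Of the markers listed for cell types, a promoter peak was present in all 8 libraries at 5 of 6 for neural precursors (not Fabp7), 5 of 7 for neurons (not Dcx or Elavl4), 3 of 6 for astrocytes and oligodendrocytes, 5 of 5 for mesenchyme and 0 of 4 for blood. The share over all coding genes was 59.9%, and lists this short say little about cell type.

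Syntaxin-1A (Stx1a) and SNAP-25 on the plasma membrane and VAMP2 on the vesicle are the SNAREs, which zip into a bundle that pulls the membranes together. Munc13-1 (Unc13a) and RIM1 (Rims1) dock and prime the vesicle, complexin-1 (Cplx1) binds the assembled bundle, and synaptotagmin-1 (Syt1) is the calcium sensor that triggers fusion. Synapsin-1 (Syn1) tethers vesicles in reserve, and SV2A (Sv2a) is a glycoprotein of the vesicle membrane. Outside neurons several such genes are held down by the repressor REST, which binds an element called RE1 (or NRSE) of 16 bases, and related SNAREs serve membrane traffic in most cells.

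The sequence that stood out was at Snap25. Its peak next to the transcription start site (TSS) lay in the first intron, at chr2:136713969-136714587, and held 2 exact RE1 matches. The stretch with both is shown on the plus strand, from chr2:136714269-136714374, with each RE1 in capitals.
Snap25: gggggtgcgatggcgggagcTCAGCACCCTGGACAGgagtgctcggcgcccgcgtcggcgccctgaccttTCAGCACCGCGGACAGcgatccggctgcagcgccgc
Across the genome 315 of 84777 consensus regions (0.372%) held an exact match, and only 8 (0.00944%) held 2 or more. No other region of the 9 genes held one. With 1 mismatch allowed, a setting chosen after the data were seen, 6 of 52 consensus regions of these genes held a match, against 5.42% of all consensus regions. In distal regions alone it was 1 of 28, against 4.16%. The promoter regions of Syn1 and Rims1 were among the 6, and so were those of Fam129c and Per1, other genes in the windows. The matches of Snap25 and of the Syn1 and Rims1 promoter regions are set out 5′ to 3′ on the strand that matched. The letter that departs from the element is in lower case. The element allows more than 1 letter at several positions, so copies with few departures can still differ from each other, as the Rims1 copy does from those of Snap25.
Snap25, chr2:136714289-136714304, plus strand: TCAGCACCCTGGACAG
Snap25, chr2:136714339-136714354, plus strand: TCAGCACCGCGGACAG
Syn1, chrX:20921134-20921149, minus strand: TCAGCACCGCGGtCAG
Rims1, chr1:22805755-22805770, minus strand: TgAGAGCCAGAGCCAG

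The Snap25 summits lay at the end of the first RE1, on its last bases in 3 libraries at 37 °C and just past it in the other 5. They lay 847, 852, 847 and 847 bp from the 5′ end in replicates 1 to 4 at 37 °C and 854, 853, 852 and 852 bp at 39 °C, a spread of 7 bp over all 8 libraries. The first RE1 covers bases 836 to 851 and the second 886 to 901, which puts their centres 8 and 42 bp from the median summit. A match of the letters is a description and does not show that REST was bound there. In Syn1 and Rims1 the matches with 1 mismatch lay 192 and 354 bp from the median summit.

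**Figure D1:**
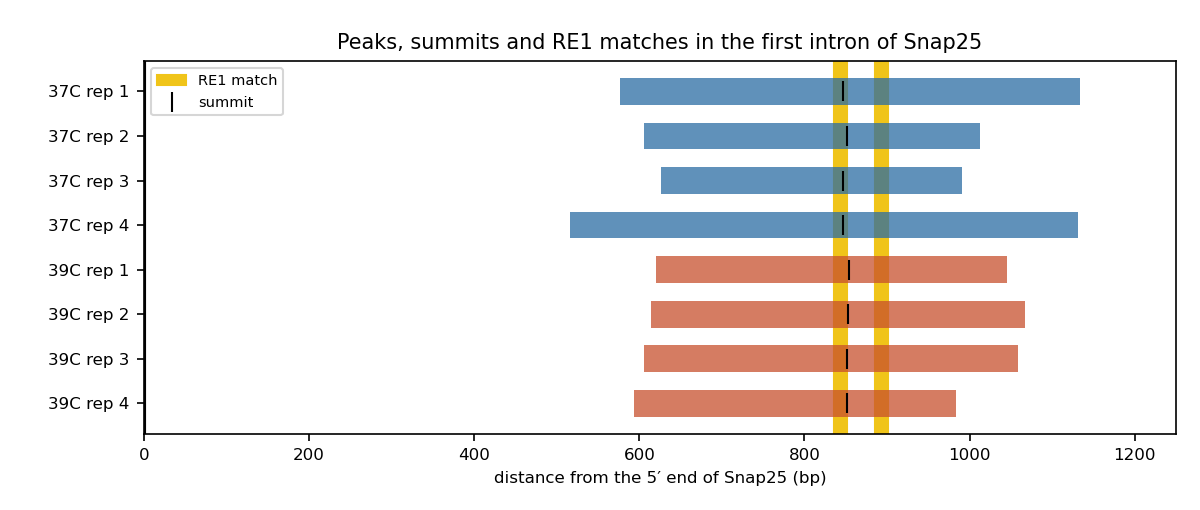
Peaks at the 5′ end of Snap25 in the 8 libraries, as bars along the distance from the 5′ end in bp (37 °C blue, 39 °C red). Black ticks are summits and yellow bands the 2 RE1 matches. All 8 summits fall between 847 and 854 bp, at or just past the first match, and no peak reaches the 5′ end at 0.

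Promoter sequence is shown for Syn1, Unc13a and Cplx1 as examples, chosen after the motif matches were seen. The promoter regions of Stx1a, Rims1, Syt1, Vamp2 and Sv2a also hold the SP/KLF box. At Cplx1 the boxes shown lie outside the peak of replicate 4 at 39 °C, which runs from 91 to 460 bp inside the gene. RefSeq promoters (GRCm38.p6, the build called mm10 here, 250 bases before to 50 after the start) matched 7 of the 9 genes, and Snap25 and Vamp2 had no entry. Capitals mark the cyclic AMP response element TGACGTCA (CRE), the SP/KLF box GGGCGGGG on either strand and, in Syn1, the RE1 with 1 mismatch. All are on the minus strand, written 5′ to 3′.
Syn1, chrX:20920869-20921168: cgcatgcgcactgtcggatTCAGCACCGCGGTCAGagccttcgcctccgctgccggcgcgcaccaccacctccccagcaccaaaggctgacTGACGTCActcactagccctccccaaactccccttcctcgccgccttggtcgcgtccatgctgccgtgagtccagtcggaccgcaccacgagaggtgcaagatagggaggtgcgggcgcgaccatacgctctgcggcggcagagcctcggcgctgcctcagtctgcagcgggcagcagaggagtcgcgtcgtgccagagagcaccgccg
Unc13a, chr8:71671708-71672007: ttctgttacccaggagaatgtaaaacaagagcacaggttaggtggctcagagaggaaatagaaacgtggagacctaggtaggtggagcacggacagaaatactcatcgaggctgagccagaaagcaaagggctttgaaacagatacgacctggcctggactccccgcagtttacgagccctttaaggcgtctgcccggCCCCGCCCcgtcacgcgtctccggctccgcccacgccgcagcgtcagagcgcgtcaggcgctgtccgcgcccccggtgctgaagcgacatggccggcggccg
Cplx1, chr5:108549978-108550277: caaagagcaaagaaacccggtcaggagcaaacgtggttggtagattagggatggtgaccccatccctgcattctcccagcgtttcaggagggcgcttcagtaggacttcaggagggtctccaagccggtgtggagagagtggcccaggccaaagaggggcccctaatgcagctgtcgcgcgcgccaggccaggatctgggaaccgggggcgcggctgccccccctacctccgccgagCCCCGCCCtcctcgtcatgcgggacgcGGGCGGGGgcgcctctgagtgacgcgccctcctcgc
Of the 32851 RefSeq promoters, 1.79% held CRE, 17.6% held the SP/KLF box and 1.01% held RE1 with at most 1 mismatch. Over whole consensus regions, the SP/KLF box was in 25 of the 52 regions of the release genes, against 16.1% of all, CRE in 4 of 52 against 2.00%, and the CTCF motif in 0 of 52 against 3.07%. Promoters make up 24 of the 52, more than among all consensus regions, of which 66466 of 84777 are distal. In distal regions alone the SP/KLF box was in 7 of 28, against 7.67%, and CRE in 1 of 28, against 1.19%.

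Each of the 9 genes had a promoter peak, that is a peak within 1 kb of a TSS, in 4 of 4 libraries at 37 °C. At 39 °C 7 of the 9 had one in 4 of 4, and Syt1 and Sv2a in 3 of 4. Both were missing from replicate 4, the shortest list. Of all coding genes 59.9% had a promoter peak in all 8 libraries, and 334 genes in all showed the pattern of 4 at 37 °C and 3 at 39 °C, 89.2% of them missing from that same replicate. Without replicate 4 at 39 °C all 9 genes had a promoter peak in every library.

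Peak strength set the genes apart. Within each list peaks were ranked by −log10 q, and the rank was written as a percentile, where 100 is the strongest. At 37 °C the order was Vamp2 (87.3 ± 0.367, mean ± SD, n = 4), Syn1 (85.5 ± 0.704), Unc13a (83.8 ± 0.727), Stx1a (81.9 ± 1.28), Snap25 (62.5 ± 1.28), Rims1 (57.6 ± 3.76), Cplx1 (51.8 ± 5.00), Sv2a (40.5 ± 6.70) and Syt1 (33.7 ± 9.55). Neighbours whose libraries overlapped were Unc13a and Stx1a, and each pair in the run from Snap25 to Syt1. At 39 °C Syn1 (81.9 ± 2.33), Vamp2 (80.9 ± 2.01) and Unc13a (79.9 ± 1.93) overlapped at the top, followed by Stx1a (74.8 ± 3.63). Snap25 (49.0 ± 7.51), Rims1 (33.2 ± 7.81), Cplx1 (24.2 ± 9.62), Sv2a (20.9 ± 1.66, n = 3) and Syt1 (10.6 ± 9.82, n = 3) came below, in the same order as at 37 °C. The gap between Stx1a and Snap25 was present at both temperatures, with no overlap of the libraries.

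All 9 promoters lay below the median of coding promoters, which was 90.0 (quartiles 81.1 and 95.5, over 13379 genes whose promoter region was called in all 8 libraries). Of those 13379 genes 31.3% were weaker than Vamp2, 30.4% than Syn1, 26.4% than Unc13a and 20.8% than Stx1a. Only 7.44% were weaker than Snap25, 4.30% than Rims1 and 2.67% than Cplx1. GC content did not follow this order. Over the 1000 bp around the 5′ end the GC content was 69.3% at Rims1, the highest of the 9 and above 94.7% of coding genes, and 48.4% at Snap25, the lowest. The ratio of observed to expected CpG was highest at 3 of the strong promoters, 0.812 at Unc13a, 0.755 at Syn1 and 0.727 at Vamp2. It was 0.709 at Rims1, 0.684 at Cplx1, 0.587 at Stx1a and 0.549 at Snap25, and lowest at the 2 weakest, 0.484 at Syt1 and 0.327 at Sv2a, beside a coding median of 0.553.

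**Figure D2:**
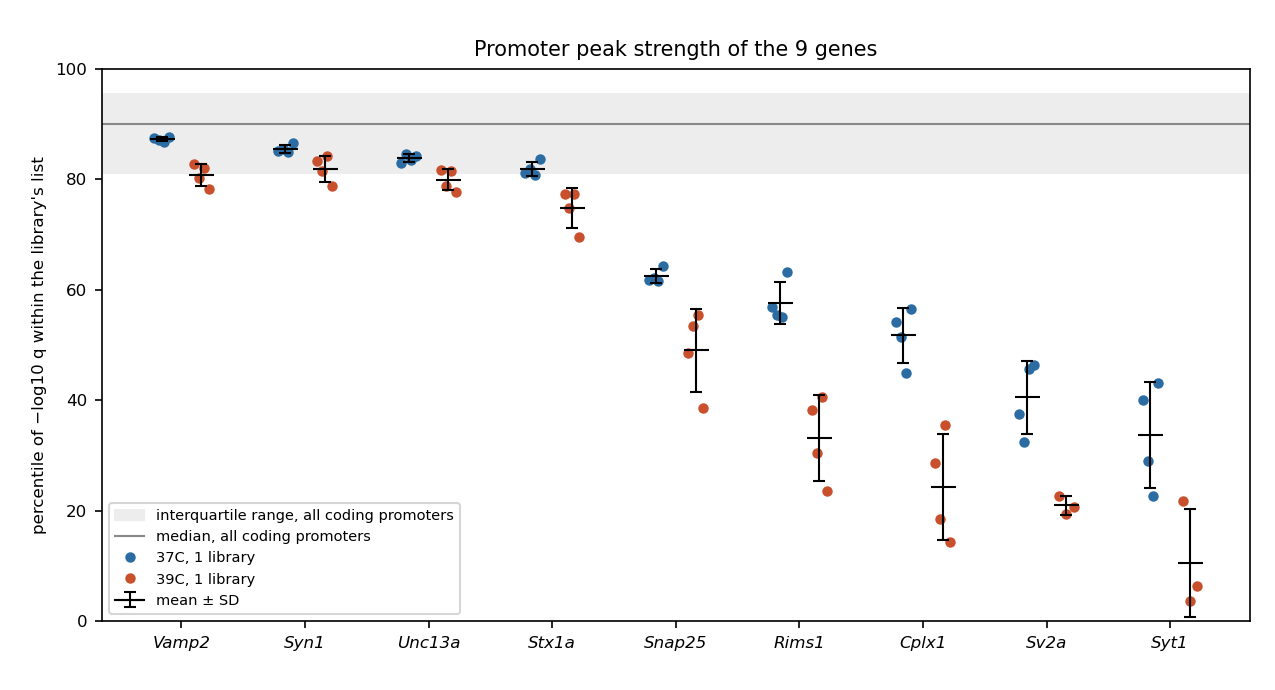
Percentile of −log10 q within the library's own list (100 is the strongest) for the promoter region of each gene, 1 point per library (37 °C blue, 39 °C red), with the mean and SD. The grey band and line are the quartiles and the median, 90.0, of all coding promoters. Vamp2, Syn1, Unc13a and Stx1a sit near the lower edge of the band, the other 5 genes lie below it at both temperatures, and Syt1 and Sv2a have 3 points at 39 °C.

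The percentile within a whole list falls when a list loses its weakest peaks, and over all shared regions its median difference was −6.84 points. The tests therefore used a second percentile, the rank of a region among the 44861 regions that all 8 libraries called, called the shared percentile from here on. Its median difference over all regions was −0.15 points (39 °C minus 37 °C). It was tested with limma over all 44861 regions, with Benjamini-Hochberg adjustment. Of all regions 22.6% were lower and 20.5% higher at 39 °C at an adjusted p under 0.05. Among the 35 regions of the release genes that were called in all 8 libraries, 7 (20.0%) were lower and 5 (14.3%) higher, with a median of −1.57 points, so neither share exceeded the background.

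The covered length of a region, the summed length of its peaks, was tested in the same way on the log2 scale. A region that loses 1 of several peaks therefore also counts as shorter. It was shorter at 39 °C for 16.1% of all shared regions and longer for 0.381%, with a median log2 difference of −0.24. In the windows of the release genes 13 of 35 regions (37.1%) were shorter and 0 longer, with a median of −0.38. When only the 6 libraries under 100 M fragments were kept, 0 of the regions of these genes passed for covered length, while 7 lower and 2 higher passed for the shared percentile. Over all shared regions the number shorter went from 7230 to 915 with these 6 libraries (2960 to 12691 with 1 library left out at a time), and 8505 lower and 8167 higher passed for the shared percentile. With 1 library left out at a time, 4 to 7 regions were lower and 3 to 5 higher for the shared percentile, and 6 to 16 were shorter. The fewest were lower without replicate 2 at 39 °C (4) and higher without replicate 4 at 37 °C (3), and the number of shorter regions was 6 without replicate 1 and 7 without replicate 4 at 37 °C, the deepest libraries.

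**Figure D3:**
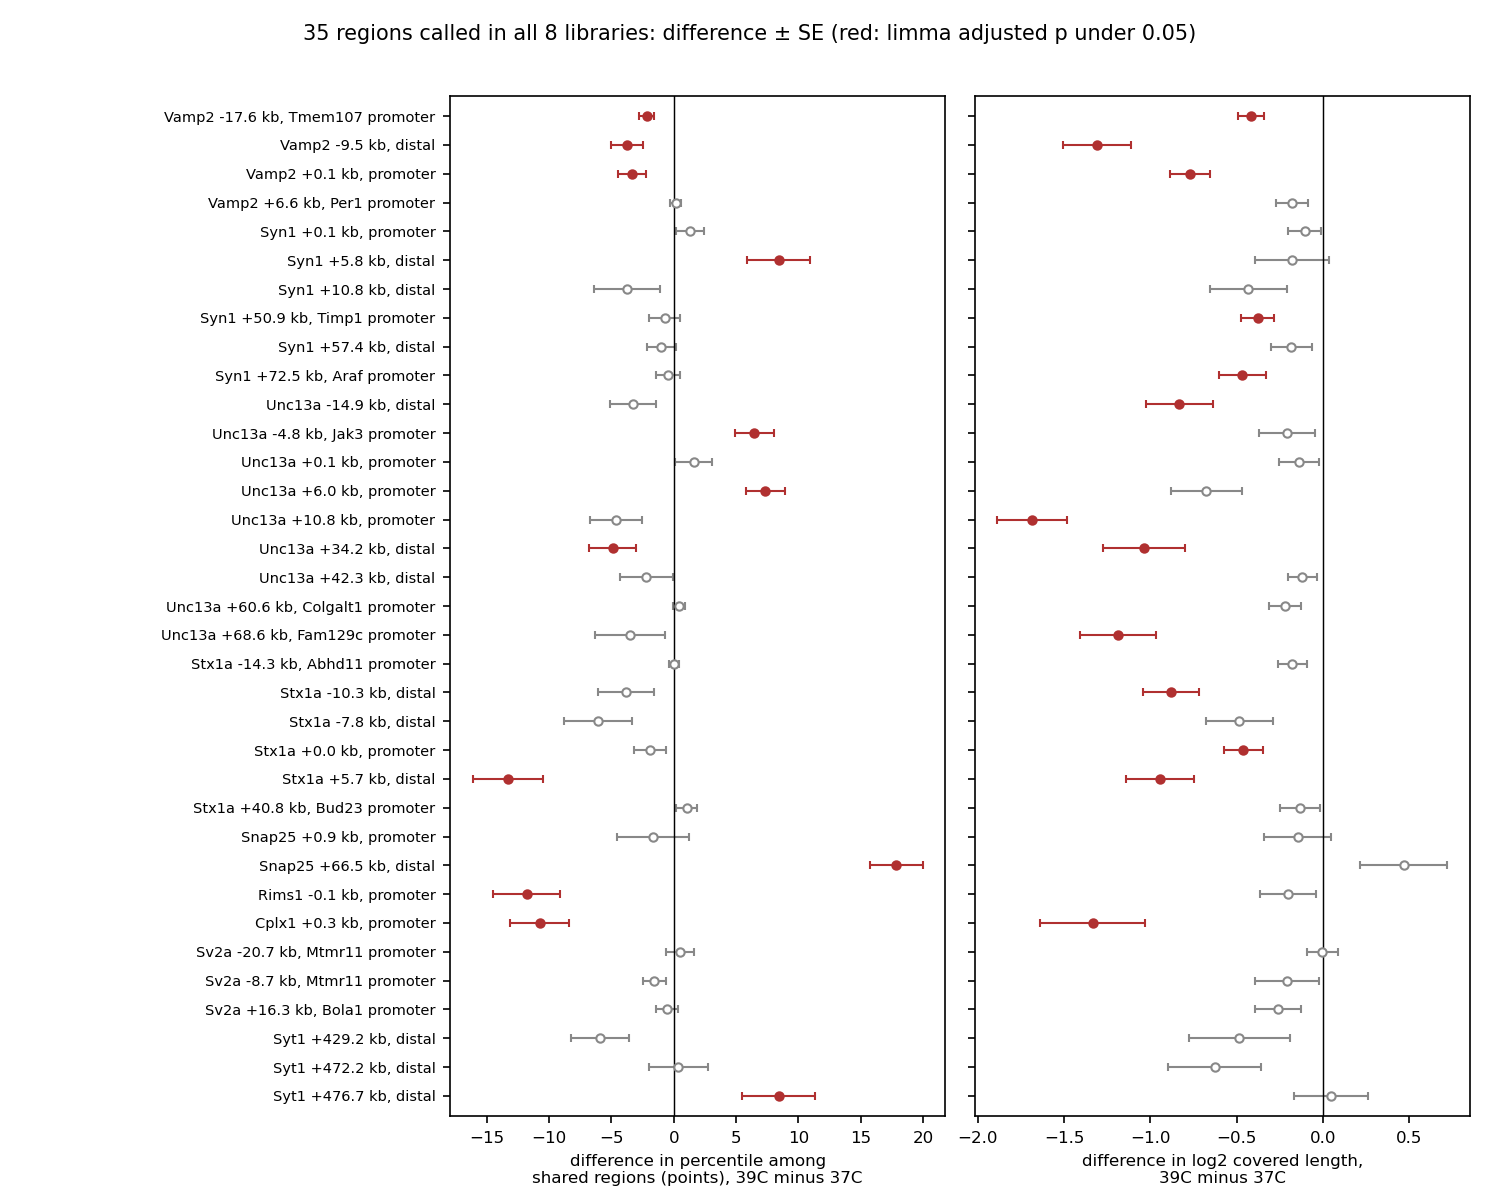
Differences between temperatures (39 °C minus 37 °C, ± SE from limma) for the 35 regions called in all 8 libraries, labelled by gene and distance of the summit from its 5′ end in kb. The left panel is in points of the shared percentile and the right in log2 covered length, and red marks an adjusted p under 0.05. The left panel spreads to both sides of 0, from −13.33 at Stx1a to 17.85 at Snap25, while every red point on the right is below 0. Under the percentile of the whole list the red points above 0 at Unc13a, Syn1 and Syt1 turn negative and the one at Snap25 falls to 1.53.

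Among the SNAREs, Stx1a had a region inside the gene that ranked lower at 39 °C, while the rank of its promoter did not pass. The promoter region (chr5:135022712-135025188) ranked at shared percentiles of 64.8, 69.4, 69.3 and 67.0 at 37 °C and 67.6, 64.5, 66.5 and 64.3 at 39 °C, which overlap (difference −1.90 ± 1.30 SE, limma adjusted p = 0.258). Its covered length went from 2472, 1992, 1827 and 2326 bp to 1622, 1571, 1385 and 1656 bp, with no overlap (log2 difference −0.46 ± 0.12, limma adjusted p = 0.0279), a call that was lost without replicate 1 or 4 at 37 °C or replicate 2 or 3 at 39 °C. The first intron held a distal region, with no coding TSS within 1 kb, at chr5:135028703-135030408. It ranked at 32.4, 33.9, 34.1 and 24.1 at 37 °C and at 17.2, 13.9, 20.0 and 20.1 at 39 °C, so every 39 °C library was below every 37 °C library. The difference of −13.33 ± 2.82 points (limma adjusted p = 0.00122) was as large or larger in 4.73% of all shared regions in that direction, and the region was also shorter (log2 difference −0.94 ± 0.20, limma adjusted p = 0.0134). The strongest distal region of Stx1a, 10.3 kb upstream at chr5:135012192-135013531, became shorter (−0.88 ± 0.16, limma adjusted p = 0.00763) while its shared percentile did not pass (−3.85 ± 2.263, limma adjusted p = 0.186).

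At Snap25 a region far inside the gene ranked higher at 39 °C, and the promoter region did not pass. The RE1 region covered 559, 407, 366 and 616 bp at 37 °C and 426, 454, 454 and 391 bp at 39 °C, and its shared percentile was 29.3, 37.4, 39.6 and 29.1 against 28.0, 35.3, 35.5 and 30.0. Both sets overlap (−1.66 ± 2.89 points, limma adjusted p = 0.681, and −0.14 ± 0.19 log2, limma adjusted p = 0.601). The other shared region lay in the last intron, 66.5 kb into the gene, at chr2:136778953-136780300. It ranked at 28.6, 31.8, 36.0 and 28.6 at 37 °C and at 47.4, 50.8, 48.7 and 49.6 at 39 °C. Every 39 °C library was above every 37 °C library, by 17.85 ± 2.13 points on average (limma adjusted p = 7.1e-06), and 3.21% of all shared regions rose as far or farther. On the percentile of the whole list the same region stood at 61.4, 58.6, 59.1 and 64.1 against 62.9, 65.0, 64.9 and 56.6, which overlap (difference 1.53, limma adjusted p = 0.721). As a description with no test, the authors' fold enrichment at its summit, the ratio to the background of the whole genome, was 8.67, 9.57, 10.2 and 9.42 at 37 °C and 14.9, 15.5, 16.7 and 9.56 at 39 °C.

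Vamp2 is a gene of 3.9 kb among close neighbours, and its window was the most open of the 9. Peaks covered 73.6% of it at 37 °C, including those at the promoters of Tmem107 and of Per1, a clock gene whose region spans 3′ sequence of the window. The Vamp2 promoter region (chr11:69085863-69090695) covered 4821, 4210, 3642 and 4317 bp at 37 °C and 2788, 2720, 2282 and 2188 bp at 39 °C, with no overlap. The log2 difference was −0.77 ± 0.12 (limma adjusted p = 0.00313), a length at 39 °C of 0.587 times that at 37 °C. Its shared percentile fell from 76.4, 78.1, 78.7 and 74.9 to 75.2, 72.1, 73.5 and 74.2, where only replicate 4 at 37 °C and replicate 1 at 39 °C overlap (−3.33 ± 1.11, limma adjusted p = 0.0234). Peaks in a distal region 9484 bp upstream (chr11:69078043-69081127) covered 2748, 1782, 1616 and 2598 bp at 37 °C and 934, 933, 930 and 675 bp at 39 °C (−1.31 ± 0.20, limma adjusted p = 0.00313). Its shared percentile also fell (−3.75 ± 1.26, limma adjusted p = 0.024). In replicates 2 to 4 at 37 °C these lengths are sums of separate peaks, and the peak at the summit covered 1167, 988 and 1221 bp. A second peak nearer the gene was absent from the 39 °C libraries. Without replicate 1 at 37 °C, which joins the peaks, the log2 difference in length of the matched region was −0.38 (limma adjusted p = 0.203). The shared percentile no longer passed at the promoter without replicate 2 or 3 at 37 °C or replicate 2 at 39 °C, nor at the distal region without replicate 3 at 37 °C or replicate 2 or 3 at 39 °C. The Tmem107 promoter region in the same window fell by 2.18 ± 0.628 points (limma adjusted p = 0.0104) and was shorter (−0.42 ± 0.08 log2, limma adjusted p = 0.00756). The Per1 region did not pass (0.15 points, limma adjusted p = 0.807).

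Of the genes that dock and prime vesicles, Unc13a had the most regions and Rims1 nearly none. Unc13a held 17 regions in 87.3 kb, 14 of them consensus regions, or 16.03 per 100 kb beside a median of 5.78 over coding genes. Rims1 held 3 in 560 kb, of which 2 were consensus regions (0.357 per 100 kb), and 17.9% of coding genes had fewer per length, nearly all of them among the 17.5% with no consensus region in their window.

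At Unc13a the promoter region did not pass for rank or length. All 8 summits of the promoter region (chr8:71669902-71672602) fell on the same base, 63 bp from the 5′ end. The shared percentile was 68.0, 73.9, 73.5 and 67.9 at 37 °C and 73.6, 70.0, 72.5 and 73.6 at 39 °C (1.62 ± 1.48, limma adjusted p = 0.408). Of the other 4 regions inside the gene that all 8 libraries called, 2 were shorter at 39 °C. The region with its summit 10850 bp into the gene (chr8:71657891-71661708) covered 2872, 2070, 2240 and 3791 bp at 37 °C and 1032, 838, 801 and 681 bp at 39 °C. The log2 difference of −1.69 ± 0.20 (limma adjusted p = 0.000977) was equalled or passed by 0.867% of all shared regions. With 1 library left out at a time it ran from −1.81 to −0.96 and passed each time. In replicates 1 to 3 at 37 °C these lengths are sums of separate peaks, and the peak at the summit covered 1989, 1226 and 1702 bp. The rest lay toward an annotated start 13262 bp into the gene. That start had a peak within 1 kb in 4 of 4 libraries at 37 °C and in 0 of 4 at 39 °C. Another intronic region (chr8:71636351-71639986) shortened from 3493, 2077, 1637 and 2332 bp to 1350, 1256, 1156 and 802 bp (−1.03 ± 0.24, limma adjusted p = 0.0204) and its shared percentile differed by −4.88 ± 1.90 points (limma adjusted p = 0.0479). The second call was lost on leaving out any library but replicate 3 of either temperature, and the first without replicate 1 or 4 at 37 °C. The strongest distal region (chr8:71627205-71630369, 42317 bp in) covered 3080, 3115, 2974 and 3133 bp at 37 °C and 3066, 3026, 2783 and 2493 bp at 39 °C (−0.12 ± 0.09, limma adjusted p = 0.334), and its shared percentile did not pass (−2.20 ± 2.11, limma adjusted p = 0.431). Outside the gene body 2 more regions were shorter. Upstream, chr8:71685516-71687360 went from 1599, 1251, 1632 and 1676 bp to 663, 732, 1160 and 971 bp, with no overlap (−0.83 ± 0.19, limma adjusted p = 0.0207), a call that was lost without replicate 1 or 4 at 37 °C or replicate 2 at 39 °C. On the 3′ side the promoter region of Fam129c (chr8:71601940-71605017) went from 2851, 2117, 1610 and 2799 bp to 1340, 920, 1071 and 764 bp, again apart (−1.19 ± 0.22, limma adjusted p = 0.00849).

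Of the 62 merged regions 1 was restricted to a temperature, and it was in Unc13a. Stretches inside a merged region are not counted. Examples are the annotated start 13262 bp into Unc13a and the second peak in the distal region upstream of Vamp2, which had peaks only at 37 °C. The region at chr8:71662170-71663292, with its summit in an annotated exon, was called in all 4 libraries at 37 °C and in 0 of 4 at 39 °C. It was a weak peak, at 8.36, 10.3, 16.01 and 16.2 on the percentile of the whole list. Of the consensus regions 6.04% were restricted to 37 °C and 0.314% to 39 °C, and in the windows of the 9 genes 1 of 52 and 0 of 52 were. Fisher's exact test (two-sided) gives p = 0.0286 for such a region, the smallest 4 against 4 libraries allow, and after adjustment over all consensus regions 0 passed (smallest adjusted p = 0.450, with 5386 regions at an unadjusted p under 0.05). In all, 19 of the 62 regions were called in more libraries at 37 °C, 6 in more at 39 °C and 37 in as many. These are 30.6%, 9.68% and 59.7%, beside 43.9%, 7.18% and 49.0% of all 98066 regions.

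At 2 places in and beside Unc13a the shared percentile was higher at 39 °C. One was a merged region (chr8:71663804-71669092) whose rank comes from its strongest peak, with a median summit 6013 bp into the gene. It ranked at 53.8, 49.5, 53.7 and 50.7 at 37 °C and at 58.3, 57.9, 58.1 and 62.9 at 39 °C, with no overlap (7.36 ± 1.58, limma adjusted p = 0.00138). The annotated start 3675 bp into the gene lies in the same region, but only replicate 1 at 37 °C joined both in a peak. The separate peak at or beside that start stood at 58.4, 51.8 and 61.4 on the percentile of the whole list in replicates 2 to 4 at 37 °C. At 39 °C it stood at 42.7, 35.5, 44.9 and 28.8, a difference that was not tested. The other was the promoter region of Jak3 (chr8:71675379-71677858), which rose by 6.46 ± 1.55 points (limma adjusted p = 0.00318). On the percentile of the whole list the differences of both regions were negative (−2.72 and −3.01) and did not pass. For the merged region in Unc13a the sign also turned when only the 6 libraries under 100 M fragments were kept (−9.18, limma adjusted p = 0.0604). Replicate 1 at 37 °C is left out there, so its joining peak is gone and the matched region was smaller.

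The Rims1 promoter region (chr1:22805421-22806687) ranked lower at 39 °C, and its length did not pass. It covered 1252, 1037, 1038 and 1080 bp at 37 °C and 1169, 940, 1049 and 723 bp at 39 °C (limma adjusted p = 0.388). Its shared percentile was 21.3, 27.2, 30.4 and 27.0 at 37 °C and 16.1, 10.1, 17.3 and 15.1 at 39 °C, so all 4 libraries at 39 °C were below all at 37 °C (−11.81 ± 2.70, limma adjusted p = 0.00218). The only other consensus region, 383720 bp into the gene (chr1:22421699-22422561), was called in 3 of 4 libraries at 37 °C and in 4 of 4 at 39 °C.

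The promoter region of complexin-1 was both lower in rank and shorter at 39 °C. The Cplx1 promoter region (chr5:108549199-108551374) has its summit 313 bp inside the gene, with a spread of 7 bp over the libraries. Its shared percentile was 17.6, 21.9, 18.0 and 16.6 at 37 °C and 7.87, 3.35, 12.4 and 7.45 at 39 °C (−10.77 ± 2.39, limma adjusted p = 0.00178), with no overlap. It covered 1941, 972, 1477 and 1950 bp at 37 °C, the deepest libraries being the longest, and 855, 582, 729 and 370 bp at 39 °C (−1.33 ± 0.30, limma adjusted p = 0.019). With only the 6 libraries under 100 M fragments the shared percentile still passed and the length did not (−0.69, limma adjusted p = 0.366), and the length also failed without replicate 1 or replicate 4 at 37 °C. The other 7 regions in the window of Cplx1 lay away from promoters and none was called in all 8 libraries. A region 13.4 kb upstream (chr5:108563300-108563819) was called in 2 libraries at 37 °C, those above 100 M, and in 4 at 39 °C.

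The calcium sensor Syt1 had the weakest promoter and a group of regions near its 3′ end. The promoter region (chr10:109010645-109011971) stood at 40.05, 28.9, 22.6 and 43.1 on the percentile of the whole list at 37 °C and at 21.8, 3.57 and 6.31 in replicates 1 to 3 at 39 °C. Without replicate 4 at 39 °C it could be tested over 50137 shared regions, and its shared percentile did not pass (−3.41 ± 2.31, limma adjusted p = 0.264). All 3 regions of Syt1 called in every library were intronic and lay 429212, 472215 and 476667 bp into the gene. The last of them (chr10:108533991-108534552) ranked at 13.9, 25.01, 22.3 and 18.0 at 37 °C and at 24.3, 33.1, 26.2 and 29.1 at 39 °C, with 1 overlap (8.42 ± 2.95, limma adjusted p = 0.0302). On the percentile of the whole list its difference was −6.93 and did not pass (limma adjusted p = 0.21), and the call was lost without replicate 1 or 4 at 37 °C or replicate 2 at 39 °C. Its neighbour (chr10:108537638-108539285) differed by 0.37 ± 2.36 points (limma adjusted p = 0.92).

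The vesicle genes Syn1 and Sv2a differed in strength. The Syn1 promoter region (chrX:20919681-20922279), which holds the CRE printed above, had its summit at the same position to within 1 bp in the 8 libraries. Its shared percentile was 72.03, 75.4, 75.7 and 72.6 at 37 °C and 75.9, 73.7, 76.5 and 74.9 at 39 °C (1.33 ± 1.13, limma adjusted p = 0.371), and its length did not pass either (−0.11 ± 0.10, limma adjusted p = 0.435). A region in the first intron of Syn1 (chrX:20914718-20915807) ranked at 19.0, 20.9, 21.5 and 15.6 at 37 °C and at 31.9, 26.7, 25.8 and 26.4 at 39 °C, with no overlap (8.43 ± 2.54, limma adjusted p = 0.0137), and on the percentile of the whole list its difference was −7.08 (limma adjusted p = 0.204). Without replicate 4 at 37 °C it did not pass (7.22, limma adjusted p = 0.0589). The strongest distal region of Syn1 (chrX:20861016-20864663) did not pass (−0.9998 ± 1.16 points, limma adjusted p = 0.523). The window of Syn1 also holds Timp1, an inhibitor of metalloproteinases that lies in an intron of Syn1, and Araf, whose promoter regions became shorter (−0.38 ± 0.10, limma adjusted p = 0.0301, and −0.47 ± 0.14, limma adjusted p = 0.0478). Both calls held only without replicate 3 at 37 °C or replicate 1 at 39 °C among the 8 fits with a library left out. At Sv2a the promoter region (chr3:96178672-96181434) covered 2763, 937, 868 and 2732 bp at 37 °C, the 2 long values in the 2 deepest libraries, and 581, 619 and 479 bp in replicates 1 to 3 at 39 °C. Without replicate 4 at 39 °C neither its shared percentile (−4.31 ± 3.65, limma adjusted p = 0.379) nor its length (−1.50 ± 0.45, limma adjusted p = 0.0687) passed. Every other region in its window was at the promoter of another coding gene.

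**Figure D4:**
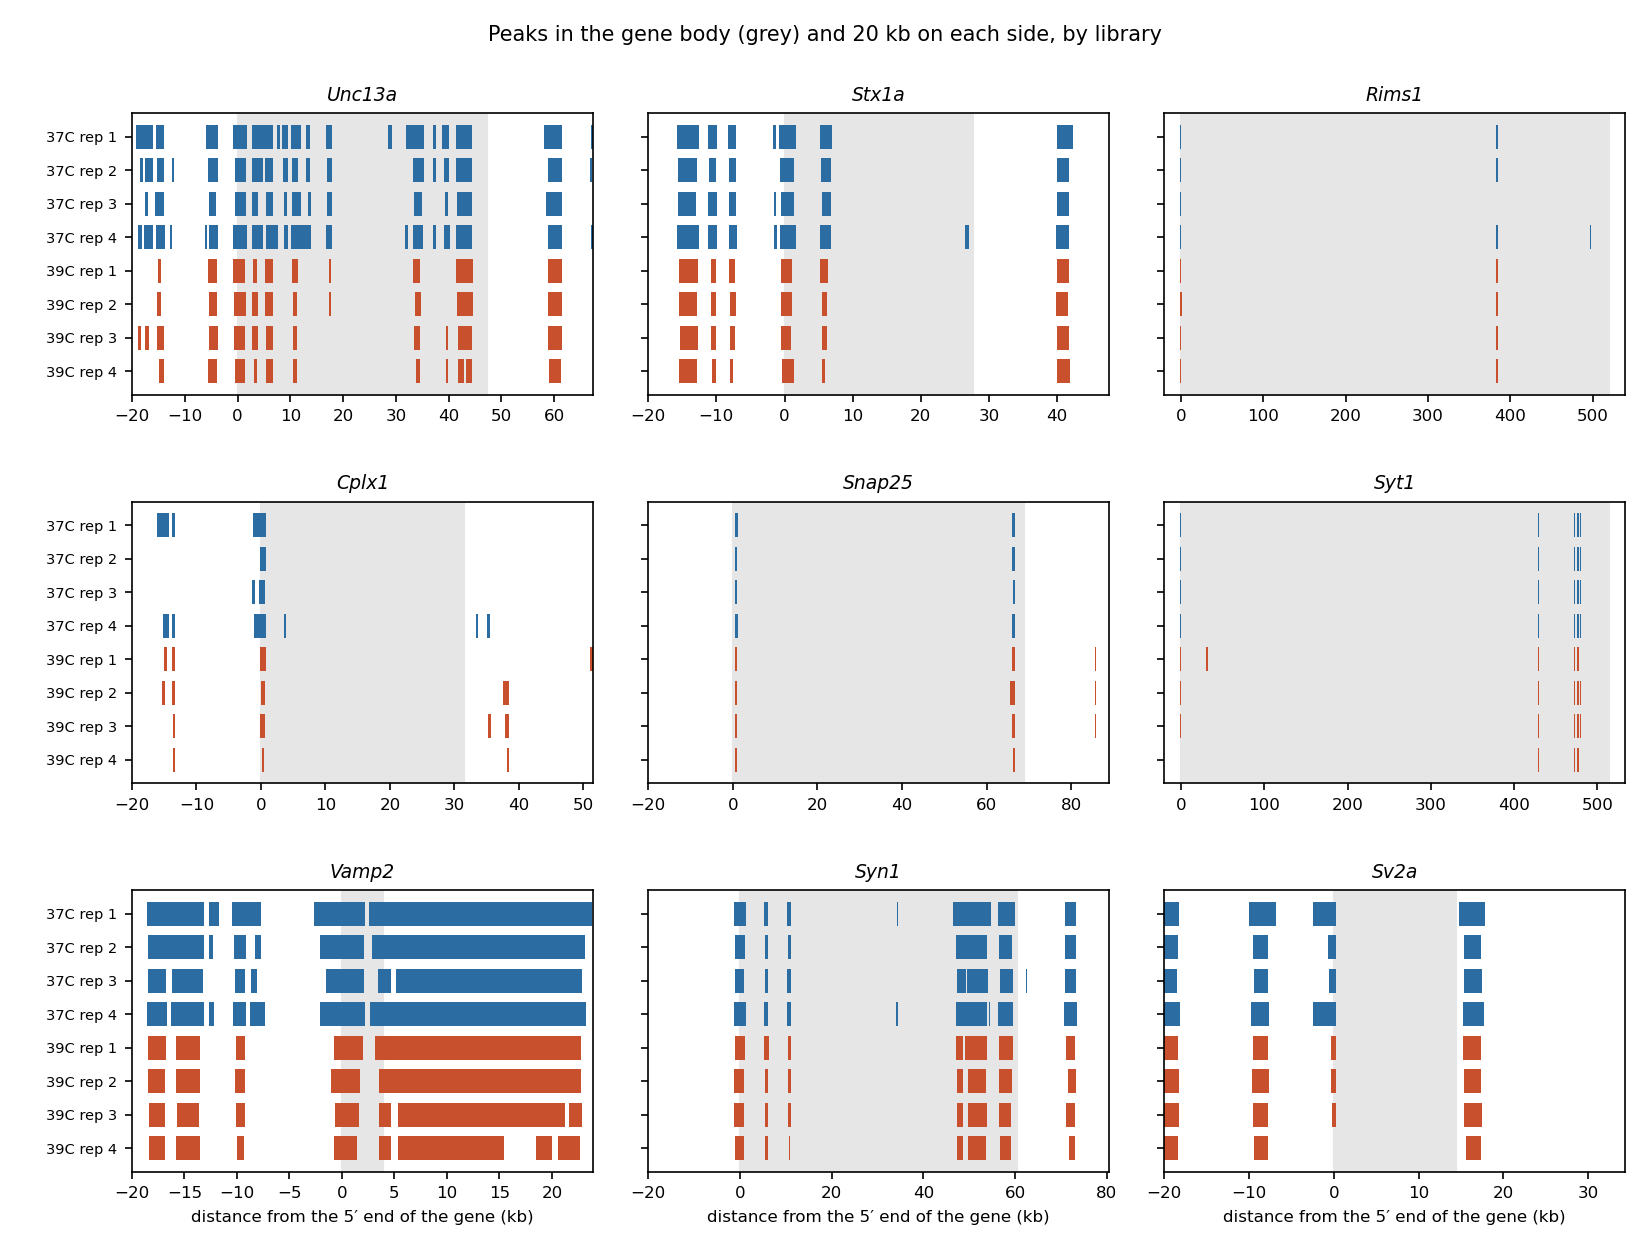
Peaks of the 8 libraries (37 °C blue, 39 °C red) along each gene, as distance from the 5′ end in kb in the direction of transcription, with the gene body in grey and 20 kb on each side. The narrowest peaks are drawn wider than they are so that they can be seen. Unc13a and Vamp2 are densely covered, with fewer or shorter bars at 39 °C, while Rims1 and Syt1, of 520 and 513 kb, show peaks only at the start and at a few places toward the 3′ end in most libraries.

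AP-1, the Fos and Jun dimer, binds TGANTCA, and those letters were within 50 bp of the median summit in 9 of the 28 distal consensus regions of the release genes, against 23.9% of all distal consensus regions. Over whole regions of every kind 31 of 52 held the letters, against 53.8%. The 7 such sites in distal regions called in all 8 libraries are shown on the plus strand with 17 bases on each side, to show the letters beside the regions described above. There were 14 distal regions called in all 8 libraries, and 6 of them differed in shared percentile. Of these 6, those of Stx1a, Snap25, Syt1 and Syn1 are among the 7, and those of Unc13a (chr8:71636351-71639986) and Vamp2 (chr11:69078043-69081127) are not.
Snap25, chr2:136779940-136779980: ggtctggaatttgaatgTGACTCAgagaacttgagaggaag
Stx1a, chr5:135029148-135029188: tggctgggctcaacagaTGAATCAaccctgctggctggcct
Syt1, chr10:108534249-108534289: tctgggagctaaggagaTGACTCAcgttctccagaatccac
Syt1, chr10:108538745-108538785: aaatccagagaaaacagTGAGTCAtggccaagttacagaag
Syt1, chr10:108581732-108581772: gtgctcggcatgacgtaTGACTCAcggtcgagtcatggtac
Syn1, chrX:20863625-20863665: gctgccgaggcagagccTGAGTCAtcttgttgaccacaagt
Syn1, chrX:20915250-20915290: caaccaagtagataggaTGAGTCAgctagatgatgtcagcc
These sites lay 2 to 46 bp from the summit. The 4 regions with a site and a difference did not move in 1 direction, since Snap25, Syt1 and Syn1 were higher on the shared percentile at 39 °C and Stx1a was lower.

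Over the whole window of a gene, the length under peaks was tested as log2(covered kb + 1) for all 21938 coding genes with limma. It was lower at 39 °C for 24.5% of genes and higher for 0.132%, with a median difference of −0.26. The number of lower genes, 5367, ran from 2087 (without replicate 4 at 37 °C) to 8878 (without replicate 3 at 37 °C) with 1 library left out at a time, so this background itself depends on the libraries. Of the 9 genes 3 (33.3%) were lower and 0 higher, with a median of −0.35. Peaks covered 32.7, 25.1, 19.7 and 29.9 kb of the Unc13a window at 37 °C and 15.2, 15.2, 16.5 and 13.2 kb at 39 °C, with no overlap (−0.78 ± 0.16, limma adjusted p = 0.0215). For Stx1a the values were 12.7, 10.2, 10.3 and 12.5 kb and 8.85, 8.39, 8.20 and 7.65 kb, again apart (−0.42 ± 0.09, limma adjusted p = 0.0201). Vamp2 had 35.2, 31.9, 29.0 and 33.1 kb and 27.3, 26.8, 25.3 and 21.4 kb (−0.35 ± 0.09, limma adjusted p = 0.0415).

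The 3 calls on window length lay close to the threshold. None of the 3 passed with a replicate block, under which far fewer coding genes were lower too (closing section). With 1 library left out at a time the differences ran from −0.91 to −0.68 for Unc13a, −0.46 to −0.37 for Stx1a and −0.40 to −0.28 for Vamp2. None of them passed when replicate 1 or 4 at 37 °C or replicate 2, 3 or 4 at 39 °C was left out, 2 passed without replicate 2 at 37 °C or replicate 1 at 39 °C, and without replicate 3 at 37 °C all 3 passed and Syn1 with them (−0.35, limma adjusted p = 0.0459). With the 6 libraries under 100 M fragments only Unc13a passed (−0.54, limma adjusted p = 0.0473). When peaks at the promoters of other genes were left out, the difference of Vamp2 was 0.0023 (limma adjusted p = 1) and those of Unc13a and Stx1a passed.

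Snap25 was the only gene of the 9 with more covered length at 39 °C, 1.61, 2.11, 1.66 and 1.02 kb against 1.37, 0.998, 0.858 and 1.34 kb, which overlap (0.27 ± 0.15, limma adjusted p = 0.229). The other 5 genes did not pass either, with differences from −0.49 at Syt1 to −0.08 at Rims1.

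**Figure D5:**
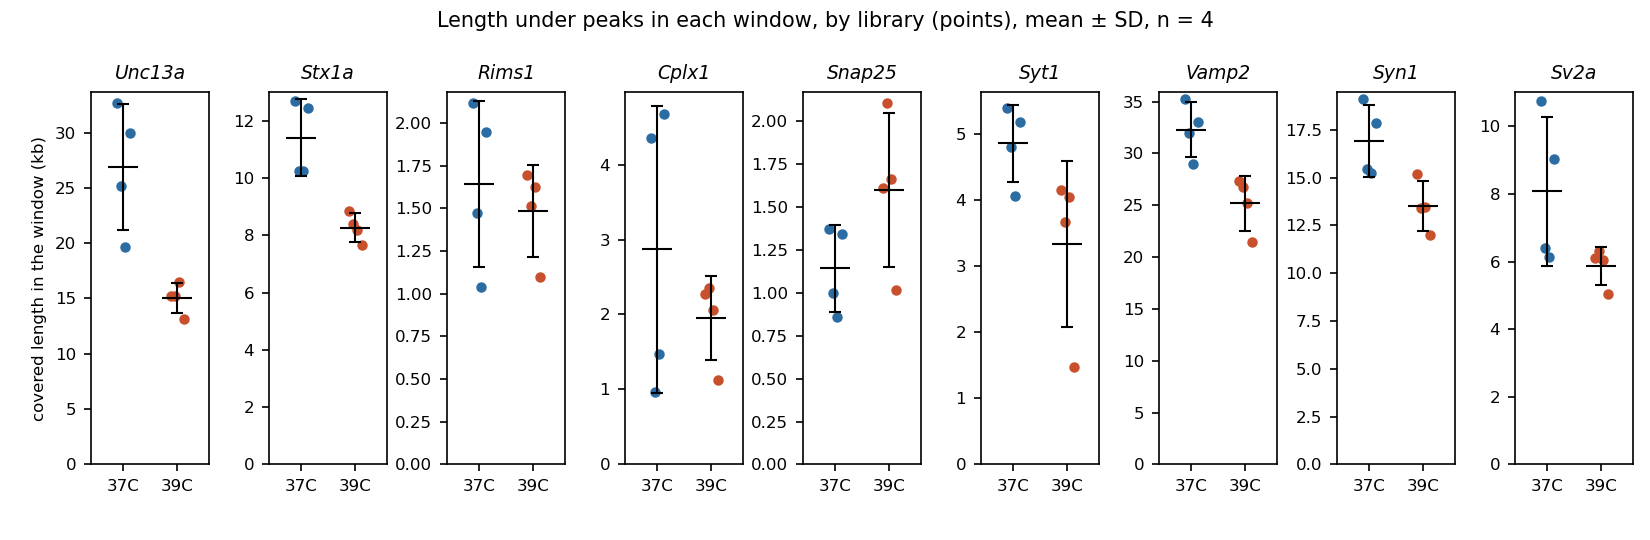
Length under peaks in the gene body and 20 kb on each side, in kb, for each gene and library (points), with the mean and SD of 4 libraries per temperature. Each panel has its own axis from 0. The libraries of the temperatures are apart for Unc13a, Stx1a, Vamp2 and, narrowly, Syn1, with 39 °C lower, and overlap for the other 5 genes. Syn1 did not pass the test.

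Other genes of the release machinery were read from a fixed list of 45. A promoter peak was present in all 8 libraries at 27 of them (60.0%), close to the 59.9% of all coding genes, and in no library at 13, among them Unc13c, Rims3, Rims4, Syt4, Syt5, Syt9, Sv2b, Pclo, Ppfia2, Rimbp2, Synpr and Cadps2. Over all coding genes 31.3% had no promoter peak in any library. Close relatives of the 9 genes were on both sides, since Unc13b, Rims2, Cplx2, Syt2, Syt7, Vamp1, Syn2 and Syn3, chosen after their values were seen, had one in all 8 libraries. The number of libraries differed by 2 or more between temperatures at 4 genes. Over all 21938 coding genes 1748 had a promoter peak in fewer libraries at 39 °C and 103 in more, counting differences of any size. Losses at 39 °C were thus common among all genes. At Cplx3, a complexin of retinal synapses, the 37 °C lists held it 4 times and the 39 °C lists 0 times. Doc2a, a calcium sensor of spontaneous release, and Stxbp5l, a relative of tomosyn, each had 4 and 1, and Rph3a, the Rab3 effector rabphilin, had 4 and 2. By Fisher's exact test (two-sided) on the numbers of libraries, 0 coding genes passed after adjustment (smallest adjusted p = 1, with 324 at an unadjusted p under 0.05). Window length was lower at 39 °C for 18 of the 45 (40%) and higher for 0, with a median of −0.43, beside 24.5% and −0.26 over all coding genes. Among these it fell at Doc2a from 8.19 ± 2.16 to 2.77 ± 0.430 kb (−1.26 ± 0.19, limma adjusted p = 0.00978) and at Cplx3 from 15.9 ± 2.78 to 7.81 ± 1.32 kb (−0.93 ± 0.17, limma adjusted p = 0.0139, mean ± SD, n = 4).

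SNAREs that most cells use were read from a second list, which also holds syntaxin-binding proteins that are not SNAREs. All 14 genes of that list that could be matched had a promoter peak in all 8 libraries. Their median promoter percentile was 93.4 at 37 °C and 91.5 at 39 °C on the whole lists, above the coding medians of 91.3 and 88.8. The difference from other genes was not tested. Of the neuronal SNAREs, Vamp2, Stx1a and Snap25 stood at 87.3, 81.9 and 62.5 at 37 °C, and Vamp1, of the list of 45 and also chosen afterwards, at 89.8. Window length was lower at 39 °C for 4 of the 14 (28.6%, beside 24.5% of all coding genes) and higher for 0.

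For each of the 7 genes with a promoter region in all 8 libraries, the coding gene with the most similar promoter was found by the Euclidean distance over the 8 percentiles, among 13378 others. The nearest was Eif2b3 to Syn1 (0.864 points), Foxf1 to Vamp2 (1.48), Rbfa to Unc13a (1.93), Eef1akmt2 to Stx1a (2.05), Cmya5 to Rims1 (5.60), Eln to Cplx1 (6.19) and Rtl5 to Snap25 (6.23). The strong promoters had many near matches and the weak ones few. Within a root mean square distance of 5 points lay 3014 genes for Syn1, 185 for Snap25, 88 for Rims1 and 34 for Cplx1.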

How the data were processed

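The 8 deposited files are peak lists, 1 per library. The authors aligned paired reads to mm10 with Bowtie2 2.4.1 (fragments up to 1000 bp), handled them with SAMtools 1.15.1 and Picard 2.26.11, and called peaks with MACS3 3.0.0a7 at a q-value of 0.05, with no control and no local background, keeping 1 fragment per position. Per the file headers a peak carries a pileup signal, a fold enrichment (a ratio to a genome-wide background) and 2 columns of −log10 values, 1 for the p-value and 1 for the q-value. The lists hold no counts per region and depend on depth, so heights were tested between libraries only as ranks.

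Overlapping peaks (1 bp or more) from any library were joined into regions, and those called by at least 2 libraries formed the consensus set. GENCODE M21 gave genes and start sites. Differences were fitted with limma 3.58.1 in R 4.3.3 (trend and robust, 8 libraries, no covariate), with Benjamini-Hochberg adjustment over all regions or all coding genes. The scripts were tested on simulated data. Named regions were each gene's promoter region (the strongest within 1 kb of a TSS), its strongest distal region, every region restricted to a temperature and every region called by limma. Of the 2 gene lists, genes with no promoter peak or with a difference of at least 2 libraries were named, except 1 that is not reported here. SNARE Vamp7 was not matched, and Stx4 was matched as Stx4a. The 9 genes, the lists and the tests were chosen with earlier results of these data known. Alternatives are listed in the closing section. No peak lay past a chromosome end of the reference.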

Additional observations from a re-analysis of the deposited data

Results flagged for a closer look

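One value of those the text rests on stood apart from the other libraries of its group. In the intronic region 383720 bp into Rims1 (chr1:22421699-22422561) replicate 4 at 39 °C stood at 4.64 on the percentile of the whole list, while the other 3 libraries at 39 °C stood between 28.3 and 32.9. It is the library with the shortest list. Of 78 groups of 4 libraries examined 1 was set apart in this way, where chance sets apart about 1 in 20.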

How the results depend on the processing

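The 8 libraries share replicate numbers, but same-numbered libraries did not deviate together (correlations of −0.09 to 0.11 for the shared percentile, −0.19 to 0.22 for length and −0.29 to 0.41 for window length), and for each measure 1 of 4 numbers correlated best with itself. With a replicate block 0 of the 9 genes passed for window length in place of 3, with the differences as before (−0.78 ± 0.19 SE for Unc13a, −0.42 ± 0.08 for Stx1a and −0.35 ± 0.09 for Vamp2), and over all coding genes 23 in place of 5367 were lower. Of the 28 calls on shared percentile, length and window length together, 23 held with the block and 5 did not.

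Keeping the 6 libraries under 100 M fragments gave 3 regions restricted to 37 °C in place of 1 and 1 restricted to 39 °C in place of 0, 2 higher on the shared percentile in place of 5, 0 shorter in place of 13, and 1 lower for window length. It turned the sign of window length at Rims1 (0.14) and Cplx1 (0.40), of the shared percentile at Unc13a chr8:71663804-71669092 (−9.18), the Unc13a promoter (−1.25), Syt1 chr10:108537638-108539285 (−0.46) and the Syn1 promoter (−0.26), and of length at the Unc13a (0.046), Snap25 (0.16) and Syn1 (0.024) promoters. Counting a library only where its peaks cover 50% of a region gave 5 restricted to 37 °C, 2 lower and 1 higher on the shared percentile, and 4 shorter. The percentile of the whole list gave 27 lower and 0 higher, and turned the sign at Unc13a chr8:71663804-71669092 (−2.72), the Unc13a promoter (−3.89), the Jak3 promoter (−3.01), Syt1 chr10:108533991-108534552 (−6.93) and chr10:108537638-108539285 (−12.49), Syn1 chrX:20914718-20915807 (−7.08) and its promoter (−3.55). Leaving out peaks at other genes' promoters put Vamp2 window length at 0.0023. RE1 with at most 1 and 2 mismatches, chosen after seeing the data, was in 6 and 32 regions in place of 1.

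With 1 library left out at a time, regions restricted to 37 °C numbered 1 to 3 and to 39 °C 0 to 1, those lower 4 to 7, higher 3 to 5 and shorter 6 to 16, and genes with lower window length 0 to 4. The ranges crossed 0 for window length at Rims1 (−0.19 to 0.0093) and the shared percentile at the Snap25 promoter (−3.21 to 0.16) and Syt1 chr10:108537638-108539285 (−0.47 to 1.26). Causes were not tested. The shared percentile passed in every alternative in which the region could be tested at the promoters of Rims1 and Cplx1 and in the Stx1a intron, and at the Snap25 intron in all but the percentile of the whole list. The 2 deepest libraries are both at 37 °C, and leaving them out also lowers the number of libraries, so depth and number cannot be told apart.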
